A study of Mus musculus with 25 samples.

Results

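FTY720 (3 arrays, the radiation+FTY group) and SEW-2871 (3 arrays, the radiation+SEW group), both ligands of sphingosine 1-phosphate (S1P) receptors, were set against each other in irradiated mouse lung. The members were all samples titled as radiation with FTY or with SEW, 6 of the 25 arrays of the series, and every gene measured on them. All 25 mice were female wild-type C57BL/6J, aged 14 to 17 weeks and weighing 20 to 25 g. Both groups received 25 Gy and 0.1 mg/kg of their compound by intraperitoneal injection 2 times a week. The other groups used here are control mice given phosphate-buffered saline (n = 4), mice given 25 Gy alone (n = 3), and unirradiated mice given the same dose of FTY720 (n = 3) or SEW-2871 (n = 3). The time from irradiation to collection of the lungs is not given. Lung RNA was hybridised to Affymetrix arrays, with 1 mouse per array by the design text, and the p-values below measure the spread between these arrays. Dose and schedule were the same in both groups, so that 1 pair of compounds was compared with radiation and the same pair without it.

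S1P is a lipid signal that cells sense through 5 G protein-coupled receptors. S1pr1 on endothelial cells strengthens the barrier of lung vessels, and S1pr1 on lymphocytes lets them leave lymph nodes. FTY720 (fingolimod) is an analogue of sphingosine that the body phosphorylates, and the phosphate binds every S1P receptor except S1pr2. SEW-2871 is an agonist selective for S1pr1. After a high dose of radiation the lung first becomes inflamed, with neutrophils among the cells that enter it, and later lays down collagen and other matrix in fibrosis.

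No gene separated the compounds at the threshold used. Of 12937 genes tested with limma, 0 had a Benjamini-Hochberg adjusted p of at most 0.05 (0% called), and the smallest adjusted p was 0.166. An unadjusted p under 0.05 was found for 1036 genes (8.01%), 405 of them higher (3.13%) and 631 lower (4.88%) with radiation+FTY than with radiation+SEW. The 3 arrays of one group lay wholly above or below the 3 of the other in 1987 genes (15.4%), with radiation+FTY higher in 947 (7.32%) and lower in 1040 (8.04%). Values are log2(signal + 16), differences are radiation+FTY minus radiation+SEW on that scale unless another pair is named, and their errors are SEs from limma. The median difference over all genes was -0.0026, and the median half-width of its 95% confidence interval was 0.22. The markers of lung cells Sftpc (alveolar type 2 cells), Ager (alveolar type 1 cells), Scgb1a1 (club cells), Cdh5 (endothelium) and Pdgfra (fibroblasts) ranked at or above the 95.6th percentile on all 6 arrays. The ranking was among 18193 genes, each at its brightest probe set.

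The lists of matrix and neutrophil genes lay on opposite sides of that median. Of 83 matrix genes tested, 67 were lower and 16 higher with radiation+FTY, with a median difference of -0.18. Over all genes 50.9% were below 0. An unadjusted p under 0.05 was found for 31 matrix genes that were lower and 2 that were higher, and the groups did not overlap in 40 that were lower and 2 that were higher. Of 23 neutrophil genes tested, 17 were higher and 6 lower, with a median difference of 0.33. Here an unadjusted p under 0.05 was found for 9 genes that were higher and 1 that was lower, and the groups did not overlap in 4 that were higher and 2 that were lower. Of these 4, Ngp, Padi4 and Csf3r had radiation+SEW arrays below the level that a gene's mean had to exceed to be tested. Over all genes, 3.13% were higher and 4.88% lower at that p, and 7.32% and 8.04% were so without overlap. The counts describe the lists, and no gene of either list was called. In bulk lung RNA, fewer cells of a type and less RNA per cell cannot be told apart.

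**Figure D1:**
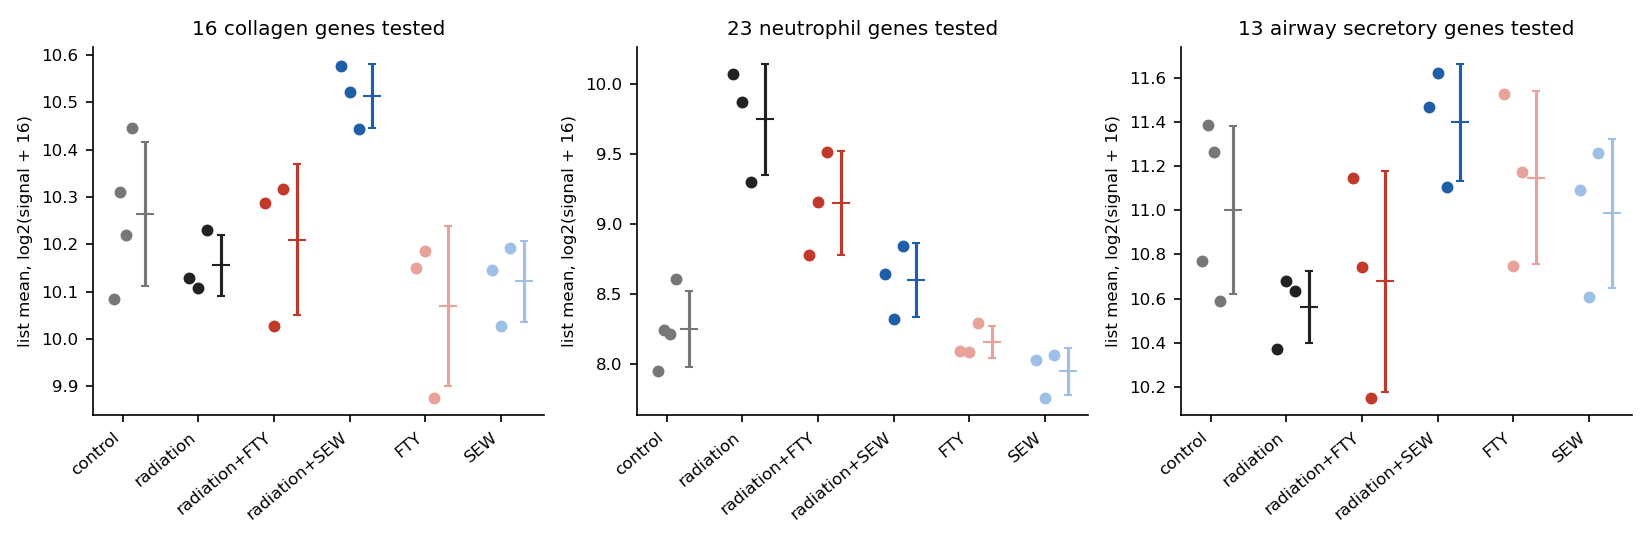
Mean log2(signal + 16) on each array over the 16 collagen genes, 23 neutrophil genes and 13 airway secretory genes that passed the filter on low values, for 6 groups; points are arrays, and the bar beside them is the mean with SD (n = 3, control n = 4). The radiation+FTY arrays lay below all radiation+SEW arrays for collagens (10.03 to 10.32 against 10.44 to 10.58), while the groups overlapped for neutrophil genes (8.78 to 9.52 against 8.32 to 8.84).

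Promoters of the leading genes of both lists are shown, since each list lay mostly on one side of 0. They are the 3 genes of smallest p in each list that have a window in the RefSeq promoter table (GRCm38.p6), which covered 57 of 85 matrix genes and 28 of 31 neutrophil genes on the array. Each line gives the 250 bases before the annotated start of transcription, 5′ to 3′ on the gene's strand, in lower case. Capitals mark 5 motifs searched on both strands: TTGCNNAA (C/EBP), GAGGAAG (PU.1), AAAGGTCA (the NBRE site of Nr4a factors), TGANTCA (AP-1) and TATAAA (the TATA box).
Csf3r: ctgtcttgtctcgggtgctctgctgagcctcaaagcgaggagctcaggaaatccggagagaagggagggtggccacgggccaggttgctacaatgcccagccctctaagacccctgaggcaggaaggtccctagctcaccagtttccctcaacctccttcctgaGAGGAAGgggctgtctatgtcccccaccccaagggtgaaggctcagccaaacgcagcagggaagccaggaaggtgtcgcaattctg
S100a9: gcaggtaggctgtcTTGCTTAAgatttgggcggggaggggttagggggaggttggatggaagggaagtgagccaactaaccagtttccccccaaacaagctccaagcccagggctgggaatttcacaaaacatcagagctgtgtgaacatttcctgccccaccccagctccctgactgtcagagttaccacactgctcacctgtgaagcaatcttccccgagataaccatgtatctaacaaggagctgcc
Ngp: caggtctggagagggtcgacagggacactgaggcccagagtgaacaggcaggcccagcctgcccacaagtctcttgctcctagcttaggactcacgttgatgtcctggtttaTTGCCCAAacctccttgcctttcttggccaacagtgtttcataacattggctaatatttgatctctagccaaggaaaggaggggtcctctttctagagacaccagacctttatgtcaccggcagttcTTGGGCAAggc
Col3a1: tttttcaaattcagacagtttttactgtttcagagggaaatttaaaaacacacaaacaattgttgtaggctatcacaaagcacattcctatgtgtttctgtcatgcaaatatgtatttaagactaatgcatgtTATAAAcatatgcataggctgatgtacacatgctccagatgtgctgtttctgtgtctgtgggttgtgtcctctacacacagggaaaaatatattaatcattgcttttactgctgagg
Nid1: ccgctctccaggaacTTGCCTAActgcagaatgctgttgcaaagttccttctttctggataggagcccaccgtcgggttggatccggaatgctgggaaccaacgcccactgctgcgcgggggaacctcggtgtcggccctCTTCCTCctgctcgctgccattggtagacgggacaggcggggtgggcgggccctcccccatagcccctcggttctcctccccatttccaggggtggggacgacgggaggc
Postn: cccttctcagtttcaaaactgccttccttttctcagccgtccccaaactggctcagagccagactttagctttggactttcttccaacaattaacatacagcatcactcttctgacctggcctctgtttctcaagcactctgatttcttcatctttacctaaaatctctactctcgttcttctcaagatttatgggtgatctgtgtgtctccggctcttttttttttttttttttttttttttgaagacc

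Csf3r lies on chromosome 4 (chr4:126024409-126024658, plus strand), S100a9 on chromosome 3 (chr3:90695722-90695971, minus strand) and Ngp on chromosome 9 (chr9:110419558-110419807, plus strand). Col3a1 lies on chromosome 1 (chr1:45311288-45311537), Nid1 on chromosome 13 (chr13:13437352-13437601) and Postn on chromosome 3 (chr3:54359017-54359266), all on the plus strand. The Csf3r window held the PU.1 letters at -86 from the start site, and the S100a9 window the C/EBP letters at -236. The Ngp window held the C/EBP letters at -138 and -11. Of the printed matrix genes, Nid1 held the C/EBP letters at -235 and the PU.1 letters at -110. Col3a1 held the TATA box at -117, and Postn held none of the motifs. The C/EBP and PU.1 letters were thus not confined to the printed neutrophil genes. A TATAAA of S100a9 began at base 1 of the annotated transcript, past the printed bases. Counted over the full windows of 300 bases, which run 50 bases into the transcript, the PU.1 letters stood in 35.7% of the 28 neutrophil windows, in 13% of the 69 matrix windows and in 13.6% of all 32851 windows. The C/EBP letters stood in 25%, 13% and 10.8% of them, the TATA box in 32.1%, 20.3% and 13.6%, the AP-1 letters in 10.7%, 8.7% and 7.81%, and the NBRE letters in 0%, 1.45% and 1.51%. A match describes the letters only.

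Collagens, the fibrils and networks that carry tension in the lung, lay on one side. All 16 tested were lower with radiation+FTY, with a median of -0.30. Of these, 9 had an unadjusted p under 0.05 (4.88% of all genes) and 12 had groups that did not overlap (8.04%). Col3a1, a fibrillar collagen of vessels and interstitium, measured 12.46, 12.01 and 12.47 on the radiation+FTY arrays and 12.84, 12.81 and 12.60 on the radiation+SEW arrays. Its difference was -0.44 ± 0.14 (limma adjusted p = 0.470). Every SEW array was above every FTY array, and replicate 2 of radiation+FTY was the lowest. Col5a2, which helps to set the width of collagen fibrils, measured 10.33, 9.95 and 10.31 against 10.78, 10.68 and 10.72, a difference of -0.53 ± 0.17. Col6a3, a chain of the beaded filaments around cells, measured 11.04, 10.73 and 11.09 against 11.44, 11.31 and 11.28, a difference of -0.39 ± 0.12. For both, too, the groups did not overlap and replicate 2 of radiation+FTY was the lowest. Col1a2, a chain of the main fibrillar collagen, measured 12.28, 11.98 and 12.38 against 12.55, 12.52 and 12.39, a difference of -0.27 ± 0.10. Its probe sets above the filter disagreed, with differences from -0.54 to 0.03. Over the 16 collagens, radiation+FTY replicate 2 was the lowest of the 6 arrays for 13 genes and radiation+SEW replicate 1 the highest for 10.

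Collagens were also set against radiation alone. The median over collagens of the difference from radiation was 0.04 for radiation+FTY and 0.32 for radiation+SEW. Both values use the same 3 radiation arrays, which had a collagen mean of 10.11 to 10.23, and the control arrays spanned 10.08 to 10.45. Control replicate 4 gave the 10.45, and the other controls measured 10.08, 10.31 and 10.22. Of the whole matrix list, 2 genes rose and 2 fell against radiation with radiation+FTY (1.94% and 1.08% of all genes), and 7 rose and 2 fell with radiation+SEW (1.38% and 1.11%), at a limma adjusted p of at most 0.05. The medians of the list were -0.02 and 0.18. Many single genes named below for their p between the compounds are also given against radiation. Those differences reuse the arrays that selected the genes, and are no separate evidence that the compounds differ. Without radiation, the list's median of FTY minus SEW was -0.09, with 59 genes lower and 24 higher.

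**Figure D2:**
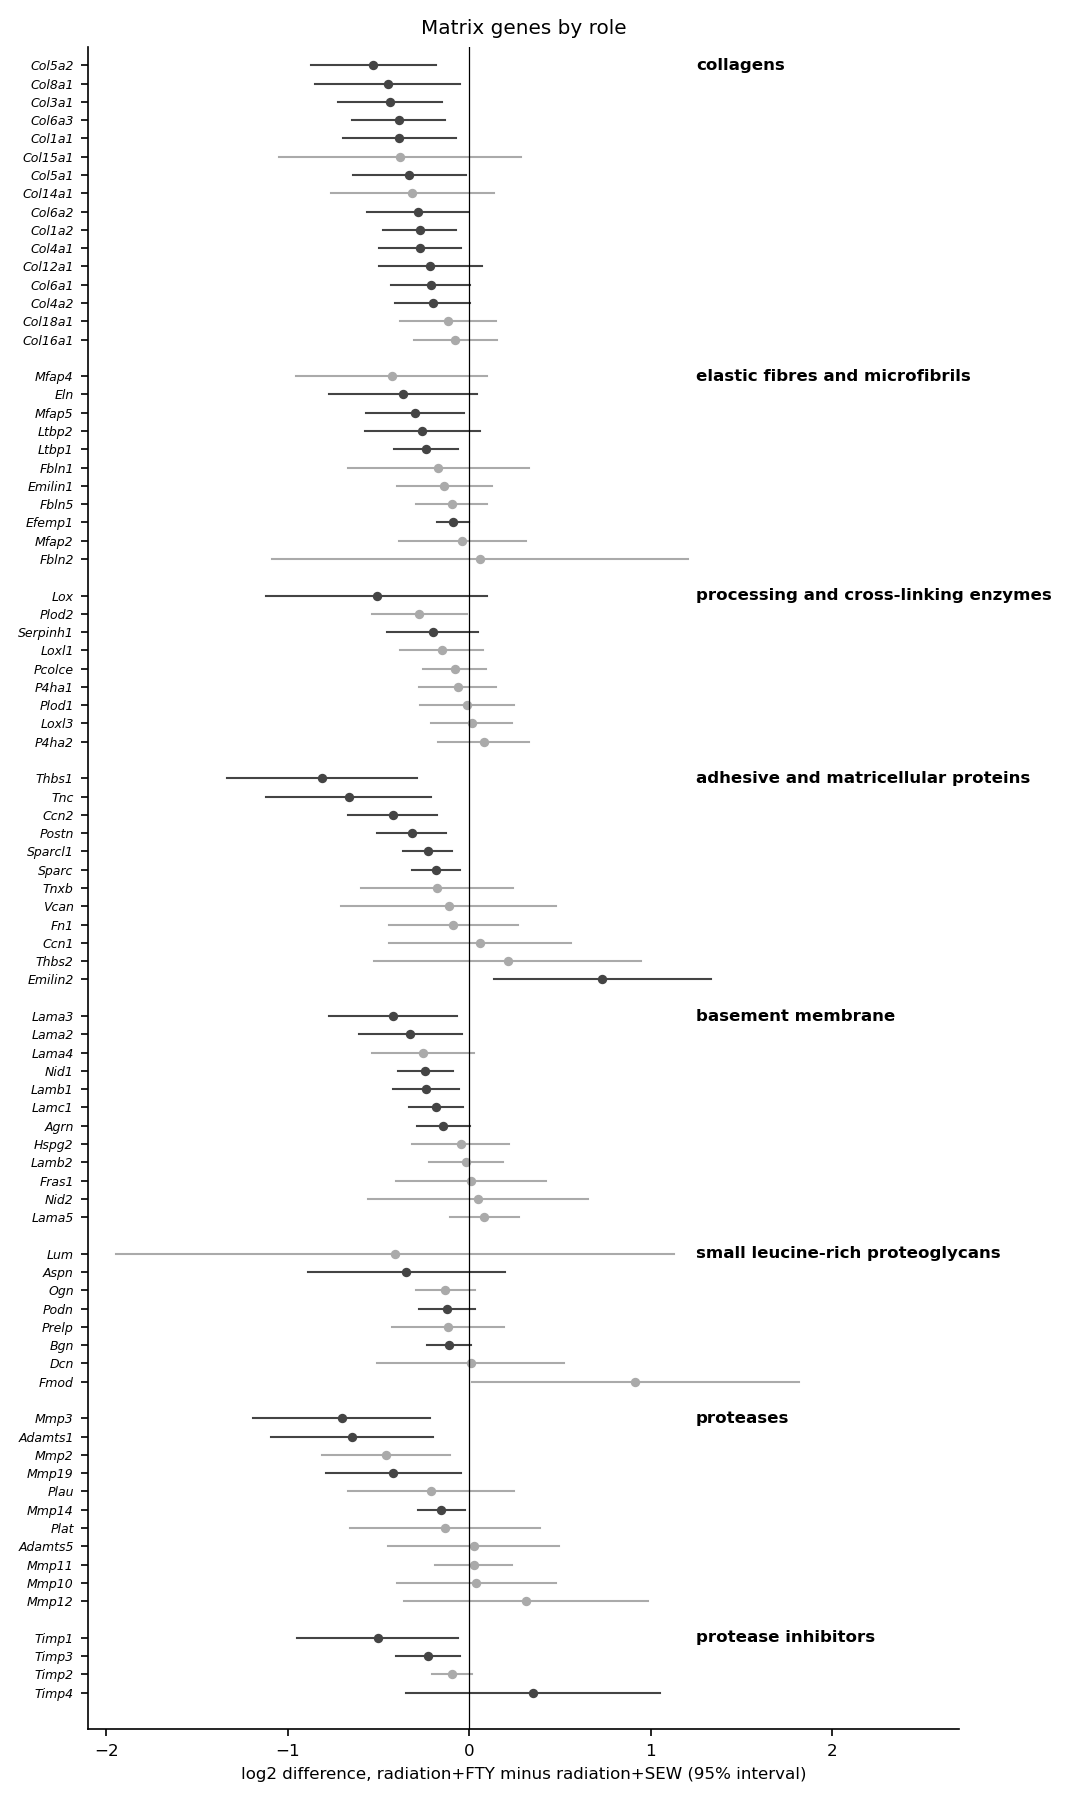
Log2 difference, radiation+FTY minus radiation+SEW, with its 95% confidence interval from limma for the 83 matrix genes tested, grouped by role; dark points mark genes whose groups did not overlap and grey points the others. All 16 collagens lie left of 0, and the lowest difference is that of Thbs1 (-0.81).

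Matricellular proteins, which sit in the matrix and signal to cells, held the lowest difference of the list. Of 12 tested, 6 were lower and 1 higher at an unadjusted p under 0.05 (4.88% and 3.13% of all genes). Thbs1, thrombospondin 1, an activator of latent TGF-beta, measured 9.17, 9.58 and 10.10 with radiation+FTY and 10.37, 10.62 and 10.29 with radiation+SEW, a difference of -0.81 ± 0.25. The groups did not overlap, and radiation alone averaged 10.98. Against radiation, Thbs1 fell by 1.36 with radiation+FTY (limma adjusted p = 0.0107), and the difference with radiation+SEW was -0.55 (adjusted p = 0.263). Ccn2, connective tissue growth factor, measured 11.67, 11.81 and 11.91 against 12.18, 12.22 and 12.24, a difference of -0.42 ± 0.12 (limma adjusted p = 0.420). The SEW arrays of Ccn2 lay within 0.06 of each other, and all were above the FTY arrays. Against radiation, Ccn2 fell by 0.57 with radiation+FTY (limma adjusted p = 0.0174), and the difference with radiation+SEW was -0.15 (adjusted p = 0.552). Tnc, tenascin C, a protein of wounded and remodelling tissue, measured 8.25, 7.94 and 8.28 against 8.91, 8.67 and 8.88, a difference of -0.66 ± 0.22. Periostin (Postn), which fibroblasts secrete and which binds collagen, differed by -0.32 ± 0.09, and the collagen-binding Sparcl1 and Sparc by -0.23 ± 0.07 and -0.18 ± 0.06, all without overlap. The probe sets of Sparc above the filter ran from -0.18 to 0.07. Emilin2, a glycoprotein of the emilin family, was the member higher with radiation+FTY at an unadjusted p under 0.05, by 0.73 ± 0.29.

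The basement membrane, the sheet under epithelium and endothelium, had 5 of 12 genes lower at an unadjusted p under 0.05 (4.88% of all genes) and none higher. Nid1, nidogen 1, which links laminin to collagen IV, measured 11.29, 11.08 and 11.26 with radiation+FTY and 11.49, 11.49 and 11.38 with radiation+SEW, a difference of -0.24 ± 0.07. Unirradiated FTY minus SEW was also -0.23 for Nid1, again without overlap. The laminin chains Lamb1 and Lamc1 differed by -0.24 ± 0.09 and -0.18 ± 0.07. Of 11 genes of elastic fibres, 3 were lower at an unadjusted p under 0.05 (4.88% of all genes). They were Ltbp1, a latent TGF-beta binding protein (-0.24 ± 0.09), Mfap5 (-0.30 ± 0.13) and Efemp1 (-0.09 ± 0.04). Efemp1 rose against radiation with both compounds, by 0.20 with radiation+FTY (limma adjusted p = 0.0177) and by 0.29 with radiation+SEW (adjusted p = 0.00288). Mfap5 rose by 0.68 with radiation+SEW (limma adjusted p = 0.0116), and its difference from radiation with radiation+FTY was 0.38 (adjusted p = 0.0931). Elastin itself (Eln) differed by -0.36 ± 0.20.

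Of 9 enzymes and chaperones that process collagen, 1 was lower at an unadjusted p under 0.05 (4.88% of all genes) and none higher: Plod2, a lysyl hydroxylase (-0.27 ± 0.12). The lysyl oxidase Lox, which cross-links collagen and elastin, measured 9.29, 9.16 and 9.68 with radiation+FTY and 9.98, 9.84 and 9.85 with radiation+SEW, a difference of -0.51 ± 0.29. The small leucine-rich proteoglycans, which coat collagen fibrils, had 0 of 8 lower at that p and 1 higher (3.13% of all genes), Fmod (0.92 ± 0.43), whose groups overlapped. Fmod measured 9.25, 8.40 and 10.86 against 8.67, 8.83 and 8.25, so that replicate 3 of radiation+FTY stood far above the rest.

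Of the matrix proteases 7 of 11, and of their inhibitors 3 of 4, were lower with radiation+FTY, against 50.9% of all genes. At an unadjusted p under 0.05, 5 proteases and 2 inhibitors were lower (4.88% of all genes) and none was higher. Mmp3, stromelysin 1, measured 9.01, 9.17 and 8.94 with radiation+FTY and 9.66, 9.67 and 9.90 with radiation+SEW, a difference of -0.70 ± 0.23. Radiation alone averaged 8.93 and control 9.18, so that the SEW arrays lay above both. Adamts1, which cleaves proteoglycans, measured 10.21, 10.50 and 11.01 against 11.21, 11.09 and 11.37, a difference of -0.65 ± 0.21. The gelatinase Mmp2 differed by -0.46 ± 0.17 with overlapping groups, and the membrane protease Mmp14 by -0.15 ± 0.06. Timp1, an inhibitor of these enzymes, measured 8.48, 8.17 and 8.35 against 8.79, 8.84 and 8.89, a difference of -0.50 ± 0.21, and Timp3 differed by -0.23 ± 0.08. The inhibitor Timp4 was higher with radiation+FTY, by 0.35, and its groups did not overlap. The protease Mmp9, which neutrophils store in granules, was counted with the neutrophil genes and went the other way.

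Genes of smooth muscle were lower on the array that was lowest for collagens. All 10 markers of smooth muscle and myofibroblasts were lower with radiation+FTY (median -0.42, but 0.06 in a fit with the mean of airway secretory genes as a covariate), and radiation+FTY replicate 2, the lowest array for 13 of 16 collagens, was the lowest for all 10. Their list mean ran from 9.54 to 9.99 on the FTY arrays and from 9.78 to 10.52 on the SEW arrays, and Cnn1, calponin of smooth muscle, differed by -0.68 ± 0.33. Fibroblast markers showed a median of -0.11 over 12 genes, 3 of them lower at an unadjusted p under 0.05 (4.88% of all genes). Among them was Dpt (dermatopontin, a matrix protein of fibroblasts) at -0.41 ± 0.12. The part of smooth muscle in the matrix difference was not tested, beyond a fit with that list's mean as a covariate: the matrix median was then -0.16, with 29 genes lower and 8 higher at an unadjusted p under 0.05. Without radiation+FTY replicate 2 the matrix median was -0.14, with 18 lower at that p, and with the mean of platelet genes as a covariate it was -0.14, with 12 lower.

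TGF-beta signalling, the main inducer of collagen genes, had 19 of 25 genes lower, with a median of -0.09. At an unadjusted p under 0.05, 5 of its genes were lower (4.88% of all genes) and none higher. Its list mean ran from 10.03 to 10.12 on the FTY arrays and from 10.15 to 10.20 on the SEW arrays, so that the groups did not overlap. Among ligands and activators, the integrin chain Itgb6, which with Itgav frees TGF-beta from its latent complex on epithelium, measured 8.12, 8.13 and 7.98 with radiation+FTY and 8.85, 8.70 and 8.76 with radiation+SEW. Its difference was -0.70 ± 0.14 (limma adjusted p = 0.174), with all SEW arrays above all FTY arrays. The other probe set of Itgb6 above the filter gave -0.05. Inhbb, the beta B chain of activin, differed by -0.28 ± 0.10. Among the receptors Tgfbr2 differed by -0.13 ± 0.06, and among transducers and feedback factors the co-repressor Skil differed by -0.29 ± 0.08 and Smad2 by -0.20 ± 0.08.

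Neutrophil genes were highest with radiation alone, intermediate with radiation+FTY and lowest of these groups with radiation+SEW by their group means. The mean over the 23 genes tested was 9.30 to 10.07 on the radiation arrays, 8.78 to 9.52 with radiation+FTY, 8.32 to 8.84 with radiation+SEW and 7.94 to 8.60 in control. Control replicate 4 gave the 8.60, and the other controls measured 7.94, 8.24 and 8.21. The ranges of the compound groups overlapped through radiation+FTY replicate 1 (8.78) and radiation+SEW replicate 3 (8.84). Over all 31 genes on the array, tested or not, the means were 8.54 to 9.22 with radiation, 8.04 to 8.80 with radiation+FTY, 7.57 to 8.03 with radiation+SEW and 7.29 to 7.85 in control, so that here the compound groups did not overlap, by a narrow margin. Against radiation, 0 of the 23 tested rose and 3 fell with radiation+FTY (1.94% and 1.08% of all genes), and 0 rose and 11 fell with radiation+SEW (1.38% and 1.11%), at a limma adjusted p of at most 0.05. The medians of these differences were -0.77 and -1.13, and both share the radiation arrays.

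**Figure D3:**
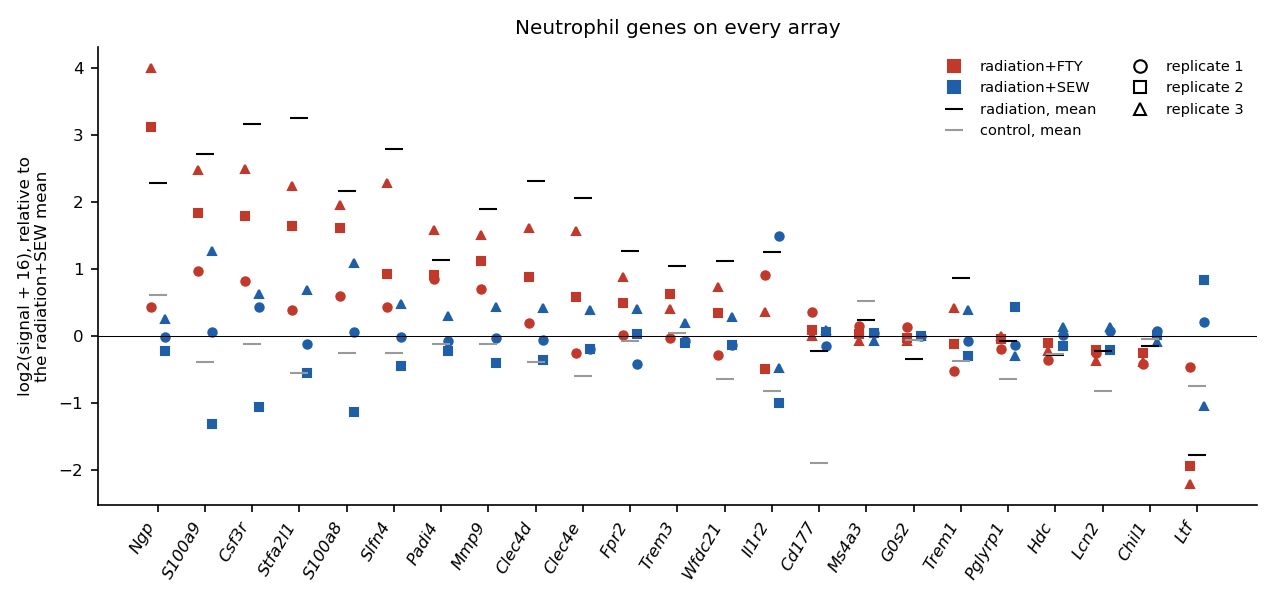
Log2(signal + 16) of the 23 neutrophil genes tested on each radiation+FTY (red) and radiation+SEW (blue) array, relative to the radiation+SEW mean of the gene; marker shapes are replicates, and dashes are the means of radiation (black) and control (grey). Among the 9 genes higher at an unadjusted p under 0.05, radiation+FTY replicate 3 is always the highest array and radiation+SEW replicate 2 always the lowest.

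Granule and cytosolic proteins of neutrophils had 5 of 10 tested genes higher with radiation+FTY at an unadjusted p under 0.05 (3.13% of all genes). Mmp9 measured 8.54, 8.95 and 9.34 with radiation+FTY and 7.81, 7.44 and 8.28 with radiation+SEW, a difference of 1.10 ± 0.28, or 2.15-fold (limma adjusted p = 0.344). The groups did not overlap, and the SEW arrays of Mmp9 lay around the control mean of 7.72 while radiation alone averaged 9.73. Mmp9 fell by 1.89 against radiation with radiation+SEW (limma adjusted p = 0.00339), and with radiation+FTY the difference was -0.78 (adjusted p = 0.110). S100a9, a subunit of calprotectin, which neutrophils hold in their cytosol, measured 11.04, 11.91 and 12.55 against 10.13, 8.76 and 11.35, a difference of 1.75 ± 0.55, and its partner S100a8 differed by 1.39 ± 0.47. The groups overlapped for both, since replicate 3 of radiation+SEW lay above replicate 1 of radiation+FTY. S100a9 fell by 2.71 against radiation with radiation+SEW (limma adjusted p = 0.0140), and with radiation+FTY its difference was -0.95 (adjusted p = 0.303). Ngp, neutrophilic granule protein, measured 6.26, 8.94 and 9.82 against 5.80, 5.60 and 6.08. All 3 SEW arrays and replicate 1 of radiation+FTY were below 6.49, the level that a gene's mean over all arrays had to exceed to be tested, so that no size is given for its difference; replicates 2 and 3 of radiation+FTY stood above it. Stfa2l1, a stefin A-like protease inhibitor, differed by 1.42 ± 0.49 with overlapping groups. It fell against radiation with both compounds, by 1.83 with radiation+FTY (limma adjusted p = 0.0496) and by 3.24 with radiation+SEW (adjusted p = 0.00339).

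Several genes on the same list went the other way. Chil1, a chitinase-like protein, measured 11.83, 11.98 and 11.86 with radiation+FTY and 12.32, 12.26 and 12.15 with radiation+SEW, a difference of -0.36 ± 0.16 without overlap. Lcn2, lipocalin 2, differed by -0.28 ± 0.28 and lactoferrin (Ltf) by -1.54 ± 0.90, and airway epithelium also makes these proteins. Ltf stood on the list of airway secretory genes too, all 13 of which were lower with radiation+FTY. Of the 31 neutrophil genes on the array, 8 did not pass the filter on low values: Camp, Mpo, Elane, Prtn3, Ctsg, Mmp8, Stfa3 and Cxcr2, among them enzymes of azurophil granules.

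Receptors of neutrophils were led by Csf3r, which binds granulocyte colony-stimulating factor and measured 8.12, 9.09 and 9.80 with radiation+FTY and 7.74, 6.24 and 7.93 with radiation+SEW. Its difference was 1.70 ± 0.49, or 3.24-fold (limma adjusted p = 0.460), and the groups did not overlap. Replicate 2 of radiation+SEW (6.24) was below the filter level of 6.49, so that the size of the difference is uncertain. Csf3r fell by 3.16 against radiation with radiation+SEW (limma adjusted p = 0.00339), and with radiation+FTY its difference was -1.47 (adjusted p = 0.0917). Clec4d, a C-type lectin of myeloid cells, differed by 0.90 ± 0.35 between the compounds and fell against radiation with both, by 1.41 with radiation+FTY (limma adjusted p = 0.0353) and by 2.30 with radiation+SEW (adjusted p = 0.00339). Clec4d, Clec4e, with 3 of the 6 arrays below the filter level, and Fpr2, a formyl peptide receptor (0.46 ± 0.32), had overlapping groups. Among intracellular factors, Padi4, the arginine deiminase of neutrophil extracellular traps, measured 7.13, 7.19 and 7.86 against 6.20, 6.06 and 6.58, a fitted difference of 1.11 ± 0.39. All FTY arrays of Padi4 were above all SEW arrays, 2 of which were below the filter level of 6.49, so that the size of the difference is uncertain. Slfn4, a schlafen gene of myeloid cells, differed by 1.21 ± 0.46 with overlapping groups, while Hdc and G0s2 differed by -0.23 ± 0.13 and 0.01 ± 0.12.

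Without radiation+FTY replicate 3, the median of the neutrophil list was 0.22 and 4 genes were higher at an unadjusted p under 0.05. Without radiation+SEW replicate 2 it was 0.27, also with 4. Platelet genes were highest on radiation+FTY replicate 3, the highest array for 6 of 7. All 7 tested were higher with radiation+FTY (median 0.61), 5 of them at an unadjusted p under 0.05 (3.13% of all genes). Their list mean ran from 8.24 to 8.86 on the FTY arrays, from 7.74 to 8.23 on the SEW arrays and from 8.48 to 8.67 with radiation alone. Ppbp, a chemokine stored in platelets that attracts neutrophils, measured 10.06, 10.43 and 11.24 with radiation+FTY and 8.91, 10.16 and 8.96 with radiation+SEW, a difference of 1.23 ± 0.41. Of the other attractants, Cxcl3 differed by -0.35 ± 0.17 and Il1b by 0.51 ± 0.35, the latter with overlapping groups. Monocyte genes showed a median of 0.09 over 14 genes, with the integrin chain Itgam, shared by neutrophils and monocytes, at 0.48 ± 0.21. The part of platelets in the neutrophil difference was not tested beyond a fit with their list mean as a covariate. The neutrophil median was then 0.41, and 6 genes were higher at an unadjusted p under 0.05. With the mean of airway secretory genes as a covariate the neutrophil median was 0.44, with 3 genes higher at that p. With the mean of smooth muscle genes it was 0.19, with 9 higher.

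None of the S1P receptors tested was called between the groups. S1pr1 measured 9.27, 9.82 and 10.01 with radiation+FTY and 10.29, 10.05 and 10.03 with radiation+SEW. Its difference was -0.42 ± 0.28 (95% interval -1.01 to 0.16, limma adjusted p = 0.725), and although the groups did not overlap, the nearest arrays were only 0.02 apart. The intervals were -0.28 to 0.21 for S1pr2, -0.30 to 0.14 for S1pr3 and -0.19 to 0.50 for S1pr4, and S1pr5 did not pass the filter. These intervals leave room for differences of either sign. Among the enzymes of S1P and ceramide turnover, the acid ceramidase Asah1 differed by -0.15 ± 0.06, the lipid phosphatase Plpp3 by -0.16 ± 0.06 and the kinase Sphk2, which phosphorylates FTY720, by 0.18 ± 0.09. Over the 18 genes of S1P signalling, 3 were lower and 1 higher at an unadjusted p under 0.05 (4.88% and 3.13% of all genes). Against radiation, Asah1 fell by 0.27 with radiation+FTY (limma adjusted p = 0.0214), and with radiation+SEW its difference was -0.12 (adjusted p = 0.318).

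**Figure D4:**
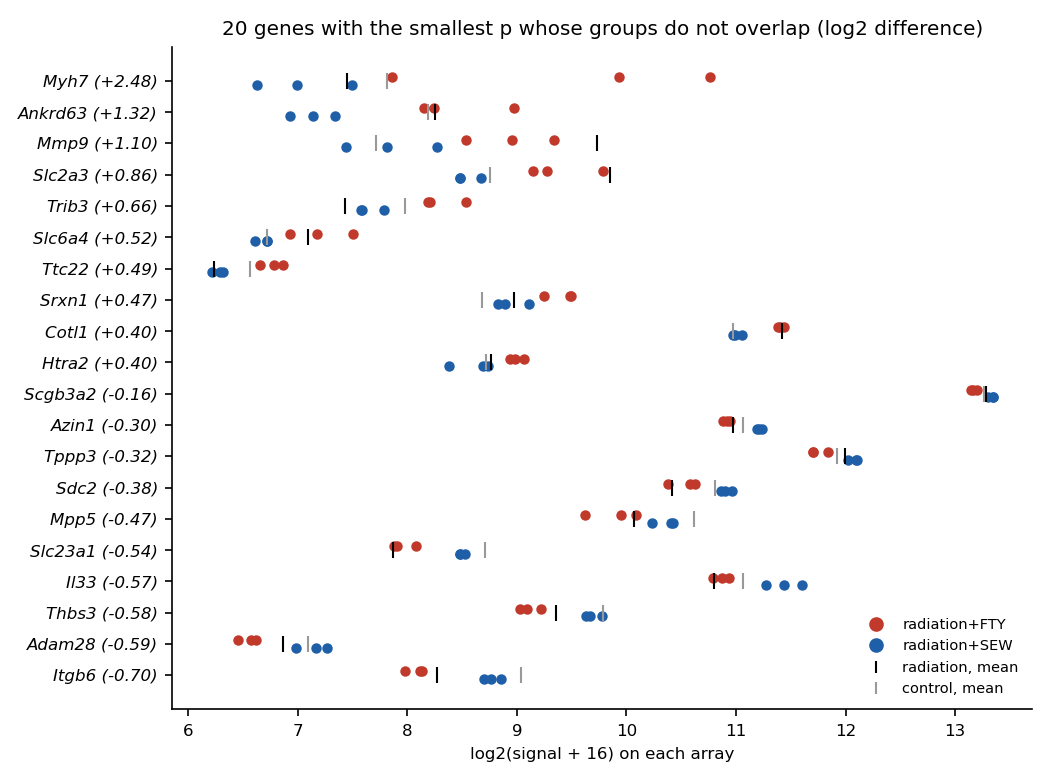
Log2(signal + 16) on each radiation+FTY (red) and radiation+SEW (blue) array for the 10 higher and 10 lower genes of smallest p whose groups did not overlap, none of them called; ticks are the means of radiation (black) and control (grey), and the number after each name is the log2 difference. Azin1, Cotl1 and Scgb3a2 show narrow groups that stand apart, and Myh7 the widest spread.

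Airway genes were among the single genes that were lower with radiation+FTY. Scgb3a2, a secretoglobin of club cells, had the smallest p of all genes and a small difference: 13.14, 13.16 and 13.20 against 13.30, 13.34 and 13.34, or -0.16 ± 0.03 (limma adjusted p = 0.166). Cyp2f2, the cytochrome P450 of club cells, differed by -0.19 ± 0.05 and fell by 0.26 against radiation with radiation+FTY (limma adjusted p = 0.0106), while with radiation+SEW its difference from radiation was -0.07 (adjusted p = 0.428). Gp2, a membrane glycoprotein of secretory epithelium, measured 7.62, 7.47 and 5.96 with radiation+FTY and 8.40, 8.79 and 8.13 with radiation+SEW, a difference of -1.43 ± 0.46. Gp2 rose against radiation with radiation+SEW, by 2.21 (limma adjusted p = 0.0165), and its difference with radiation+FTY was 0.78 (adjusted p = 0.311). The mucin Muc5b differed by -0.97 ± 0.36 and the airway protein Bpifb1 by -1.21 ± 0.53. Over the 13 airway secretory genes tested, 6 were lower at an unadjusted p under 0.05 (4.88% of all genes). The median was -0.64, and radiation+FTY replicate 3 was the lowest array for 9. All 9 ciliated-cell genes were lower too, with a median of -0.10, led by Tppp3, a tubulin-polymerising protein of cilia (-0.32 ± 0.07).

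Other genes of the epithelium and stroma were among the 10 lowest by p. Azin1, antizyme inhibitor 1, which raises polyamine synthesis, measured 10.94, 10.88 and 10.92 against 11.21, 11.19 and 11.23, a difference of -0.30 ± 0.06 (limma adjusted p = 0.166). The groups were tight, and the gap between them was wider than either. Azin1 rose by 0.24 against radiation with radiation+SEW (limma adjusted p = 0.0253), and with radiation+FTY the difference was -0.06 (adjusted p = 0.560). Here too the differences from radiation reuse the arrays that selected the genes. Il33, an alarmin held in the nuclei of alveolar type 2 cells, measured 10.87, 10.94 and 10.79 against 11.60, 11.28 and 11.43, a difference of -0.57 ± 0.13. Il33 rose by 0.64 against radiation with radiation+SEW (limma adjusted p = 0.0140), and with radiation+FTY its difference was 0.07 (adjusted p = 0.790). Unirradiated FTY minus SEW was -0.40 for Il33, also without overlap. Sdc2, the proteoglycan syndecan 2, differed by -0.38 ± 0.08 and rose by 0.50 against radiation with radiation+SEW (limma adjusted p = 0.00446). Thbs3, thrombospondin 3, differed by -0.58 ± 0.11, the protease gene Adam28 by -0.59 ± 0.12, the polarity gene Mpp5 by -0.47 ± 0.10 and the ascorbate transporter Slc23a1 by -0.54 ± 0.13.

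Among the 10 genes higher with radiation+FTY were some of stress and metabolism. Trib3, a pseudokinase of the integrated stress response, measured 8.21, 8.54 and 8.19 against 7.58, 7.58 and 7.79, a difference of 0.66 ± 0.15. It rose by 0.88 against radiation with radiation+FTY (limma adjusted p = 0.0106), and with radiation+SEW its difference was 0.22 (adjusted p = 0.480). Srxn1, sulfiredoxin, a target of the antioxidant factor Nrf2, differed by 0.47 ± 0.12, with probe sets above the filter from -0.13 to 0.48. Of 16 genes of the oxidative stress list, 14 were higher and 2 lower, 4 and 1 of them at an unadjusted p under 0.05 (3.13% and 4.88% of all genes). Among the higher were the glutathione transferase Gsta2 (0.88 ± 0.32) and the thioredoxin reductase Txnrd1 (0.14 ± 0.05). The list mean ran from 10.67 to 10.79 on the FTY arrays and from 10.48 to 10.61 on the SEW arrays. Slc2a3, a glucose transporter of leukocytes and platelets, measured 9.14, 9.28 and 9.78 against 8.67, 8.48 and 8.48, a difference of 0.86 ± 0.22, and fell by 1.30 against radiation with radiation+SEW (limma adjusted p = 0.00423). Cotl1, an actin-binding protein abundant in leukocytes, differed by 0.40 ± 0.10, with probe sets from 0.01 to 0.42. Slc6a4, the serotonin transporter, differed by 0.52 ± 0.11, the mitochondrial protease Htra2 by 0.40 ± 0.09, and Ankrd63 by 1.32 ± 0.34. Ttc22 was higher by 0.49 ± 0.13, with all 3 SEW arrays below the filter level. Myh7, the slow myosin heavy chain of muscle, measured 9.93, 7.86 and 10.76 against 6.63, 6.99 and 7.50, a difference of 2.48 ± 0.61. Myh7 stands on the list of skeletal muscle genes, whose mean was also lowest on replicate 2 of the radiation+FTY arrays. The part of muscle tissue in its difference was not tested.

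Markers of tissue next to the lung varied widely within both groups. The mean of skeletal muscle genes was 11.76, 7.38 and 11.74 on the radiation+FTY arrays and 10.93, 8.23 and 7.17 on the radiation+SEW arrays, and that of adipocyte genes 11.39, 9.92 and 10.41 against 9.15, 10.86 and 8.70. Both lists overlapped between groups, and all 15 muscle genes and all 10 adipocyte genes tested had a higher group mean with radiation+FTY. With both lists as covariates the matrix median was -0.19 and the neutrophil median 0.47. B-cell genes, of interest because FTY720 and SEW-2871 act on lymphocyte traffic, were higher with radiation+FTY in 12 of 12 tested, with a median of 0.69. Of these, 10 were higher without overlap (7.32% of all genes) and 2 at an unadjusted p under 0.05 (3.13%). Their list mean measured 8.83, 8.63 and 8.45 with radiation+FTY and 7.94, 8.25 and 7.92 with radiation+SEW, against 6.98, 8.09 and 8.49 with radiation alone. The radiation arrays thus spanned more than the gap between the compounds. Ms4a1, the B-cell surface protein CD20, ran from 9.73 to 10.31 against 8.93 to 9.56, a difference of 0.86 ± 0.45, and Cd22 differed by 0.79 ± 0.33. T-cell genes showed a median of 0.12 over 8 genes, with none at that p.

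Immediate early genes, which respond within minutes to stress, were lower with radiation+FTY together with heat shock genes in 22 of 26 tested (median -0.14). Of these, 5 had an unadjusted p under 0.05 (4.88% of all genes). The list mean ran from 10.41 to 10.51 on the FTY arrays and from 10.64 to 10.72 on the SEW arrays. Nr4a3, a nuclear receptor of this class, measured 7.78, 7.77 and 8.19 against 8.47, 9.16 and 8.74, a difference of -0.88 ± 0.30, and fell by 1.50 against radiation with radiation+FTY (limma adjusted p = 0.0162). Klf4, a zinc finger factor, differed by -0.48 ± 0.17 and the heat shock co-chaperone Dnajb1 by -0.55 ± 0.25. Thbs1 and Ccn2 are known as fast-responding genes as well, and the part of such a response in their difference was not tested. Of 22 targets of p53, 15 were lower, among them Mdm2 (-0.22 ± 0.08) and Plk3 (-0.33 ± 0.13), with a median of -0.06. Their list mean was 9.95 on control replicate 4, against 9.37, 9.35 and 9.26 on the other controls and 9.83 to 9.89 with radiation alone. That array also set the upper end of the control ranges given for collagens and neutrophil genes. The cause was not tested.

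Without radiation the compounds were compared on 3 arrays each. Again 0 of 12937 genes were called (0%; smallest limma adjusted p = 0.257), with 1178 at an unadjusted p under 0.05 (9.11%), and the groups did not overlap in 2337 genes (18.1%). The difference between the compound contrasts with and without radiation gave 0 calls (0%; smallest adjusted p = 0.133) and 1064 genes at an unadjusted p under 0.05 (8.22%). In 189 genes the groups did not overlap in the same direction in both pairs, which is 9.51% of the 1987 and 8.09% of the 2337, and in 180 they did so in opposite directions, which is 9.06% and 7.70%. The collagens had a median of -0.08 without radiation, the neutrophil list 0.24, airway secretory genes 0.04 and B-cell genes -0.08. Csf3r was 0.92 higher with FTY than with SEW without radiation, and S100a9 was 1.04 higher, in both cases without overlap. The interaction for these genes was 0.78 (limma adjusted p = 0.799) and 0.71 (adjusted p = 0.843).

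**Figure D5:**
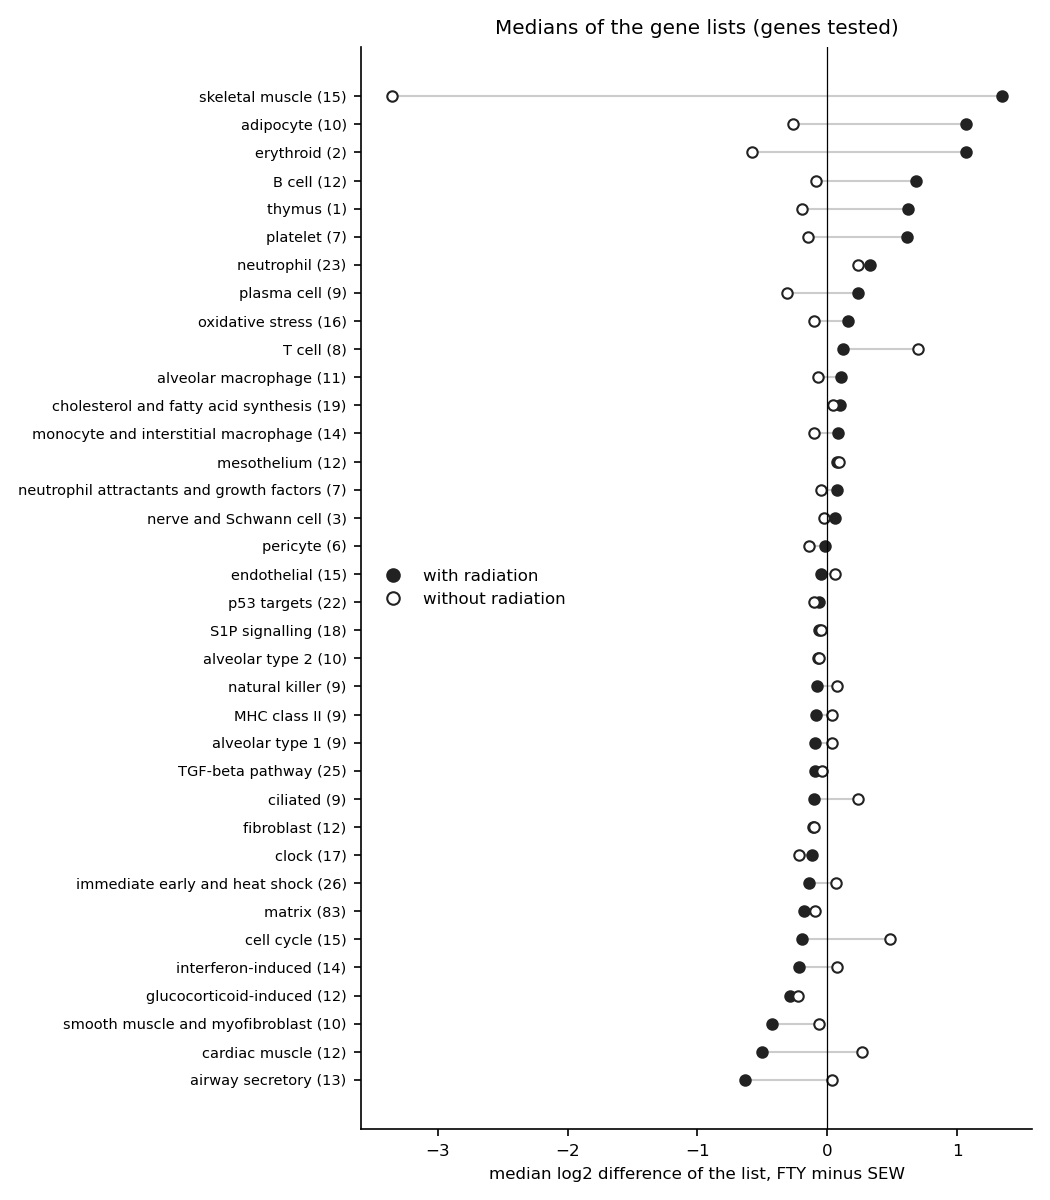
Median log2 difference, FTY minus SEW, of each of 36 gene lists with radiation (filled) and without (open); the number of genes tested is in brackets after each name. Airway secretory genes have the lowest median with radiation (-0.64), and the matrix and neutrophil lists have the same sign in both pairs.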

How the data were processed

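Total lung RNA was hybridised to 25 arrays in 8 groups. The deposited table gives each probe set's intensity (signal), not log-transformed, from 0.53 to 19112, with array medians from 118.3 to 129.6. Per the submitters' processing notes GCOS was used, and its version and scaling are not given in the sources used here. Of 45101 probe sets, 64 are controls, 34945 carried 1 gene symbol in the platform annotation, 932 several and 9160 none; only those with 1 symbol were tested. Values became log2(signal + 16). Each gene was represented by its brightest probe set, and genes whose mean did not exceed the 40th percentile of probe sets (6.49) were left out; list means are over the genes tested unless stated. limma 3.58.1 in R 4.3.3 was fitted to 8 group means with 17 residual degrees of freedom and eBayes with trend. The two-sided p-values of a comparison were adjusted by Benjamini and Hochberg's method.

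The pair of groups, the 36 gene lists (569 of 623 entries matched) and the named genes' rule were chosen with earlier results of these data known. Named were the 10 genes of smallest p per direction without overlap, since none was called, the members of smallest p in each list or role, and the S1P receptors; Emilin2, Tnc, Thbs1, Stfa2l1, S100a8, Ltf, Eln, Cnn1, Ms4a1 and other members past that number were added after their values were seen. The fit was tested on simulated arrays. Same-numbered arrays had residual correlations from 0.15 to 0.40 in the unirradiated pair, all over 0.1. In the irradiated pair these ran from -0.16 to 0.65, and 1 of 3 was over 0.1. Differently numbered arrays ran from -0.35 to 0.19 in the unirradiated pair and from -0.77 to 0.72 in the irradiated pair. The highest of these exceeded some same-numbered values in both pairs, so pairing by number was not assumed in the fit. The fit with the replicate block is given below. No 2 arrays were duplicates (highest correlation 0.994). The log2 ratio of Gapdh 3 prime to 5 prime probe sets ran from 0.01 to 0.24 with radiation+FTY and from -0.04 to 0.43 with radiation+SEW. Precision is limited by the number of arrays. The alternatives changed normalization, pseudocount, filter, probe sets, moderation, array weights, covariates, arrays in the fit and single arrays; the smooth muscle, airway secretory and platelet covariates were chosen after seeing the data.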

Additional observations from a re-analysis of the deposited data

Results flagged for a closer look

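For 4 named genes the radiation+FTY and radiation+SEW arrays did not overlap, and the unirradiated FTY and SEW arrays did not overlap in the opposite direction. The difference of the compound contrasts was tested as an interaction, and none passed after adjustment over all 12937 genes. Itgb6 was lower with radiation+FTY than with radiation+SEW (-0.70) and higher with FTY than with SEW without radiation (0.41), an interaction of -1.10 ± 0.19 (limma adjusted p = 0.133, the smallest of all genes). Its other probe set above the filter gave -0.05 with radiation. Adamts1 gave -0.65 and 0.39, an interaction of -1.04 ± 0.30 (limma adjusted p = 0.382). Slc23a1 gave -0.54 and 0.14, an interaction of -0.68 ± 0.18 (limma adjusted p = 0.319). Mmp14 gave -0.15 and 0.15, an interaction of -0.30 ± 0.09 (limma adjusted p = 0.374). Groups that do not overlap in opposite directions were found in 180 genes in all.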

How the results depend on the processing

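The count of 0 genes between radiation+FTY and radiation+SEW became 1 with no filter, 4 with array weights, 4 with skeletal muscle and adipocyte covariates, 4 with the smooth muscle covariate, 7 with the airway secretory covariate and 1 without control replicate 4. Leaving out single arrays of the compared groups gave 0 to 4 genes, 4 of them without radiation+FTY replicate 2. Called in at least 1 of these were Scgb3a2, Azin1, Thbs3, Tppp3, Adam28, Mpp5 and Myh7 of the 20 genes first named; none of the 20 changed sign in any setting. Without radiation the count of 0 became 809 with array weights and 1 with the smooth muscle covariate. For the difference of the contrasts it became 196 with array weights, 1 with only the compared arrays, 6 with muscle and adipocyte covariates, and 0 to 6 without single arrays (6 without radiation+FTY replicate 2 and 6 without FTY replicate 3). The causes were not tested. With the replicate block the counts stayed at 0 in all 3 comparisons and the matrix and neutrophil medians at -0.18 and 0.33. Over all settings the matrix median ran from -0.24 to -0.14 and the neutrophil median from 0.19 to 0.54. Of the other 34 lists, 8 had a median beyond 0.5 in size; this was 5 with no filter, 4 with the platelet covariate and 5 to 8 without single arrays (5 without radiation+FTY replicate 3). Of the other lists given with a median in the text, the sign turned for smooth muscle (0.06 with the airway secretory covariate). It also turned for T cells (-0.13) and p53 targets (0.02), both with the platelet covariate. Mesothelium, described below, turned (down to -0.02) with the filter at the 60th percentile and with the muscle and adipocyte covariates. Airway secretory genes turned (0.04) where their own mean was the covariate. So did skeletal muscle genes, from a median of 1.34 down to -0.53.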

Other observations

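Genes of the mesothelium, the cell layer on the lung surface, split between the compounds. Of 12 tested, 4 were higher and 1 lower with radiation+FTY at an unadjusted p under 0.05 (3.13% and 4.88% of all genes), and the median was 0.08. Nkain4 measured 10.28, 10.46 and 10.40 against 9.95, 10.03 and 10.22, a difference of 0.31 ± 0.11, and the membrane protein gene Upk3b differed by 0.54 ± 0.22; the groups did not overlap for either gene. Against radiation, at a limma adjusted p of at most 0.05, 7 of the 12 rose with radiation+FTY (1.94% of all genes) and 2 with radiation+SEW (1.38%), comparisons that share the radiation arrays. Genes of cholesterol and fatty acid synthesis had 6 of 19 that rose against radiation with radiation+FTY and 2 with radiation+SEW at that threshold (again 1.94% and 1.38% of all genes), and a median of 0.09 between the compounds, with none at an unadjusted p under 0.05.

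Interferon-induced genes were lower with radiation+FTY in 12 of 14 (median -0.22) and cell cycle genes in 13 of 15 (median -0.20), with none at an unadjusted p under 0.05 in either list. Plasma cell genes were higher in 8 of 9, 3 of them at that p (3.13% of all genes). Their list mean measured 10.78, 9.58 and 10.43 with radiation+FTY and 9.33, 10.19 and 9.46 with radiation+SEW, so that the groups overlapped.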
